A study of Mus musculus with 12 samples.

Results

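The comparison describes how wild type mouse lung endothelial cells responded to a short period of low oxygen. It set 3 RNA-seq libraries of cells held at 1% oxygen for 90 min against 3 libraries of cells held at 21% oxygen, and covered the 11378 of 23422 genes in the deposited table whose summed FPKM (a read count scaled for transcript length and library depth) averaged at least 1 over the 12 libraries of the series. The cells were primary endothelial monolayers from the lungs of C57BL/6J mice, and all of them were grown in medium with serum, endothelial mitogen and heparin. The remaining 6 libraries came from lung endothelial cells labelled as a knockout of the mixed lineage kinases MLK2 and MLK3 (MLK2 -/- MLK3 -/-), with 3 at each oxygen level. Those knockout libraries entered the fit for the estimate of spread and for the test of whether the responses differ. Nothing in the labels says that replicates were grown from separate mice or dishes, so the p-values measure the spread between these libraries, which may be technical.

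Cells sense oxygen through prolyl hydroxylases of the EGLN family, which use oxygen to mark the alpha subunits of the hypoxia-inducible factors (HIF) for destruction through the VHL ubiquitin ligase. When oxygen falls, the alpha subunit stays, pairs with ARNT and binds short DNA elements whose core is ACGTG or GCGTG, and genes for anaerobic glycolysis, for angiogenesis and for the EGLN enzymes themselves are among the known targets. In endothelial cells the same pathway acts on sprouting, on vascular tone and on the supply of VEGF, and these cells draw most of their ATP from glycolysis even when oxygen is plentiful.

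The promoters of the 5 genes with the largest rises are shown because each carries the core of the HIF-binding element just before the transcription start. They come from RefSeq (GRCm38.p6) and cover the 250 bases before the start nearest to the 5′ end of the transcript with the highest FPKM, read 5′ to 3′ along the gene. These windows are chr8:45999851-46000100 (minus strand) for Ankrd37, chr4:101419039-101419288 (plus) for Ak4, chr11:120948817-120949066 (plus) for Slc16a3, chr2:11502091-11502340 (minus) for Pfkfb3 and chr7:138909507-138909756 (minus) for Bnip3. Capitals mark ACGTG and GCGTG on either strand, so that CACGT and CACGC are the same cores read from the other strand.
Ankrd37: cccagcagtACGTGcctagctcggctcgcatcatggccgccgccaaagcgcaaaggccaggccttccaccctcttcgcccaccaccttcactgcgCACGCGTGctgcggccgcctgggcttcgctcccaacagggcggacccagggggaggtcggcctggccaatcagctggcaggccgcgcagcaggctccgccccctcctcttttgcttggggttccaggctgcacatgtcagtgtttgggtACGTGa
Ak4: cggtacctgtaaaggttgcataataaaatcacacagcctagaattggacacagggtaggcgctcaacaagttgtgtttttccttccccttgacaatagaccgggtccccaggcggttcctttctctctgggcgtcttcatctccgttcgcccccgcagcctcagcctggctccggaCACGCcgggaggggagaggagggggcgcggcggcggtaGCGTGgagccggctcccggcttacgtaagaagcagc
Slc16a3: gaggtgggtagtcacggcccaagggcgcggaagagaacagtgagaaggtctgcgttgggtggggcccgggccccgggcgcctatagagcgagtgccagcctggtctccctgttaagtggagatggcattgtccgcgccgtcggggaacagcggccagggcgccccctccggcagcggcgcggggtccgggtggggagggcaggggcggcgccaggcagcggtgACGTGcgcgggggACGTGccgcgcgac
Pfkfb3: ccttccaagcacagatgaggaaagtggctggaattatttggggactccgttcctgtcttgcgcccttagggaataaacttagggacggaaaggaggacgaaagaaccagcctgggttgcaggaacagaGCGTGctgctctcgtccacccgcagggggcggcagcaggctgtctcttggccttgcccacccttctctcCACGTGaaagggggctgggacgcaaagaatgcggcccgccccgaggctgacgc
Bnip3: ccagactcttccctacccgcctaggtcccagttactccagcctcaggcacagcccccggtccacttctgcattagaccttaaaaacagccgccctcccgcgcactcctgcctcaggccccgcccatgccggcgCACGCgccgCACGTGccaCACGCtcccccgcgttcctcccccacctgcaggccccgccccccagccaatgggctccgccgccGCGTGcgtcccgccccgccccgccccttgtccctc

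Ankrd37 had 4 such cores, beginning 241, 155, 152 and 6 bases before the start. Ak4 had 2, both GCGTG, at 74 and 36 bases, and Slc16a3 had 2, both ACGTG, at 27 and 14 bases. Pfkfb3 had GCGTG at 122 bases and a CACGTG at 53 bases, in which ACGTG reads on both strands. Bnip3 had 5 matches between 117 and 35 bases, and 2 of them form a CACGTG. Within the same 250 bases, a core was found in 17 of the 20 genes with the largest rises that had a RefSeq promoter. Vegfa, Tpi1 and Gper1 had none there. Among the genes with the largest falls it was found in 7 of 15. Over the longer window described next, either core was found in 18 of the 20 genes with the largest rises that had a RefSeq promoter, in 8 of the 15 with the largest falls and in 69.8% of the 8477 tested genes with one, counting any start of a gene.

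The cores are short and common. Over windows from 250 bases before to 50 after each start, ACGTG stood in 19.6% of all 32851 RefSeq promoters, and either core stood in 43.8% of them. With 1 start per gene, ACGTG was present in 26.8% of the 8477 tested genes that had a promoter in the table. It was present in 33.4% of genes called higher, in 43.5% of those past a log2 difference of 0.5 (54 of 124) and in 59.5% of those past 1 (22 of 37). Among genes called lower the share was 25.4%, and among those past -0.5 it was 24.2%. GCGTG, counted over any start of a gene, did not show the same steady increase. It stood in 58.2% of tested genes, 63.4% of those called higher, 60.5% past 0.5 and 67.6% past 1. Among genes called lower GCGTG stood in 50.8%, and past -0.5 in 54.8%. A match describes the letters in these windows and says nothing about binding.

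The 6 wild type libraries were similar in depth and breadth. An estimate from the step size of low FPKM values gave 22800000 to 26100000 fragments per library, and 11303 to 11358 genes reached 1 FPKM in each. Pearson's r of log2(FPKM + 1) across genes was 0.994 to 0.996 within a group and 0.988 to 0.992 between groups, where genes are not independent replicates. The first principal component held 51.6% of the variance and placed the hypoxia libraries at 15.4, 13.0 and 7.77 and the normoxia libraries at -11.6, -11.5 and -13.1, so hypoxia replicate 3 lay nearest to normoxia. Both targeted genes were lower in the knockout libraries, and Map3k11 was not near 0 there. Map3k10, which encodes MLK2, lay between 16.6 and 19.2 FPKM in wild type libraries and between 0.131 and 1.34 FPKM in knockout libraries. Map3k11, which encodes MLK3, lay between 31.9 and 36.4 FPKM against 10.9 to 12.2 FPKM. Which part of either gene is deleted is not given in the sources used here, and these sums over whole genes do not check it. Neither was called between oxygen levels in wild type cells by limma (log2 differences -0.10 and -0.076, adjusted p = 0.333 and 0.291). Over the 6 wild type libraries, 11 of 12 endothelial markers reached a mean of 1 FPKM. The exception was Vwf, the von Willebrand factor gene, at 0.09 to 0.16 FPKM.

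After 90 min at 1% oxygen, a small set of genes had risen strongly and a broad set had shifted slightly. A moderated linear model (limma) on log2(FPKM + 1) called 2370 of 11378 genes at an adjusted p under 0.05, which is 20.8%. Of these, 1192 (10.5%) were higher and 1178 (10.4%) were lower. The counts for gene lists below stand beside these 2 shares, and a list near them had no more calls than tested genes in general. The lists hold 1005 tested entries for 976 different genes, so some genes count in more than 1 list. All differences below are hypoxia minus normoxia on that log2 scale, with the standard error of the fit, and they understate the change of genes near 1 FPKM. Values are given for replicates 1, 2 and 3 in that order, first at 21% oxygen, and a level with ± is a mean with its SD (n = 3). The median difference was 0.26 among genes called higher, -0.28 among those called lower and 0.0023 over all tested genes. Large changes went mostly upward: 170 rises and 85 falls passed 0.5, 45 rises and 4 falls passed 1, and 8 rises and 0 falls passed 2. The 3 hypoxia and 3 normoxia libraries did not overlap for 2340 of the 2370 called genes. With so few libraries, separation of the groups nearly follows from a call and adds little to it, here and below. Genes named for the largest rises and falls were chosen from those without overlap. Hypoxia replicate 3 showed the smallest response, with a median of 1.13 over the 45 genes past 1, against 1.33 and 1.25 in replicates 1 and 2. Without hypoxia replicate 1 the fit called 1382 genes (743 higher, 639 lower), without hypoxia replicate 2 it called 1495, and 722 were lower without normoxia replicate 3. In all 6 fits with a wild type library left out, 44 of the 45 rises past 1 and 71 of the 85 falls past 0.5 stayed called. Of all 2370 called genes, 1169 stayed called in all 6 of those fits.

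**Figure D1:**
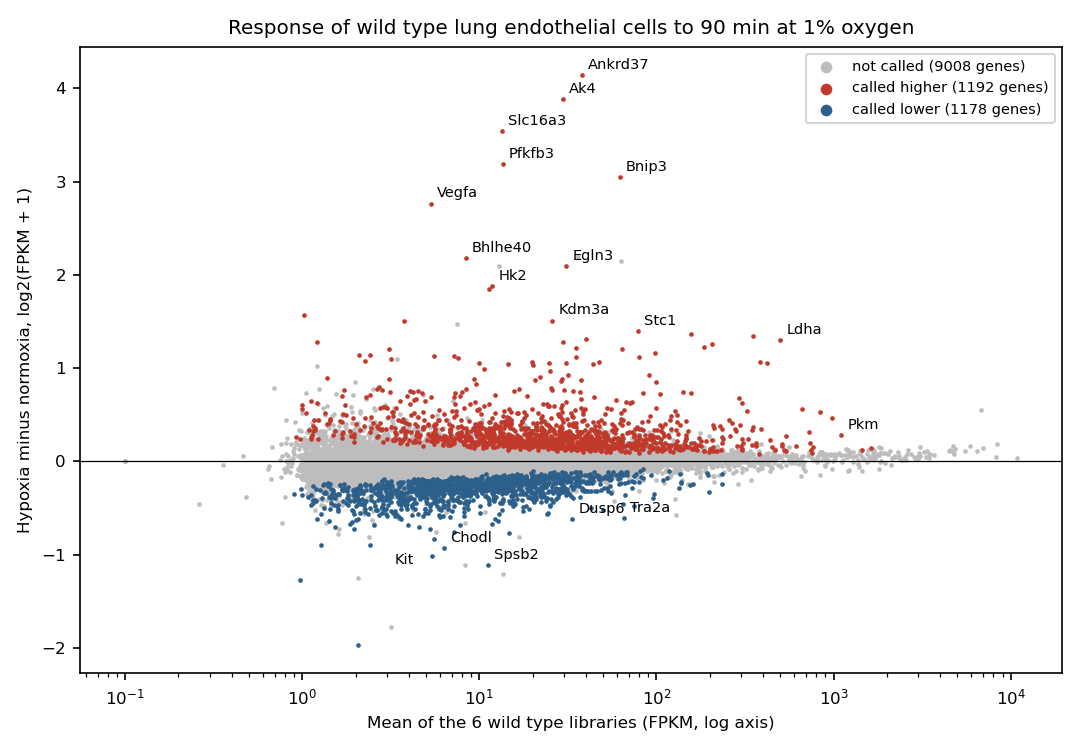
Each point is 1 of the 11378 tested genes, with the mean FPKM of the 6 wild type libraries on a log axis and the hypoxia minus normoxia difference of log2(FPKM + 1) on the vertical axis; red and blue mark genes called higher (1192) and lower (1178). The rises reach 4.14 for Ankrd37, while 4 falls pass 1.

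Ankrd37, an ankyrin repeat gene known as a HIF target (ENSMUSG00000050914, GRCm38 chr8:45996902-46005707), stood at 3.38, 2.45 and 3.85 FPKM at 21% oxygen and 74.6, 76.2 and 67.5 FPKM at 1% oxygen, a 22.6-fold rise with a log2 difference of 4.14 ± 0.13 (adjusted p = 1.39e-09). Ak4, a mitochondrial adenylate kinase (ENSMUSG00000028527, GRCm38 chr4:101419277-101466995), stood at 3.13, 2.66 and 2.82 FPKM at 21% oxygen and 56.4, 56.7 and 55.7 FPKM at 1% oxygen, a difference of 3.89 ± 0.16 (adjusted p = 1.70e-08). Slc16a3, the lactate exporter MCT4 (ENSMUSG00000025161, GRCm38 chr11:120948480-120960868), stood at 1.5, 1.12 and 1.23 FPKM at 21% oxygen and 24.8, 28.9 and 23.02 FPKM at 1% oxygen, a difference of 3.54 ± 0.10 (adjusted p = 1.23e-09). In each of these genes every hypoxia library lay many times above every normoxia library. Exons of Ankrd37 overlap those of Ufsp2 on the other strand. Ufsp2 was not called, and whether counting used strand is not given in the sources used here.

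Pfkfb3 makes fructose 2,6-bisphosphate, the activator of phosphofructokinase, and its product is a known driver of glycolysis in sprouting endothelium (ENSMUSG00000026773, GRCm38 chr2:11471433-11554077). It stood at 1.74, 1.98 and 1.86 FPKM at 21% oxygen and 28.7, 26.6 and 20.5 FPKM at 1% oxygen, a difference of 3.19 ± 0.12 (adjusted p = 9.02e-09). Bnip3, a mitophagy receptor of the outer mitochondrial membrane (ENSMUSG00000078566, GRCm38 chr7:138890836-138909519), stood at 11.9, 12.5 and 13.4 FPKM at 21% oxygen and 109.7, 115 and 109 FPKM at 1% oxygen, a difference of 3.05 ± 0.063 (adjusted p = 8.00e-11). The replicates of Bnip3 were close together, while hypoxia replicate 3 had the lowest Pfkfb3 value of its group and still lay far above normoxia. Vegfa, the main angiogenic growth factor (ENSMUSG00000023951, GRCm38 chr17:46016993-46032369), stood at 0.401, 0.668 and 0.776 FPKM at 21% oxygen and 10.99, 11.5 and 7.69 FPKM at 1% oxygen, a difference of 2.76 ± 0.17 (adjusted p = 7.87e-07). All 3 normoxia libraries were under 1 FPKM for Vegfa, and the lowest hypoxia library, replicate 3, lay far above them.

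Bhlhe40, a transcriptional repressor tied to the circadian clock, stood at 2.38, 2.3 and 2.41 FPKM at 21% oxygen and 15.01, 16.5 and 11.7 FPKM at 1% oxygen (2.18 ± 0.15, adjusted p = 2.51e-06). Egln3, a HIF prolyl hydroxylase, stood at 10.8, 10.8 and 11.8 FPKM at 21% oxygen and 50.7, 54.05 and 47.8 FPKM at 1% oxygen (2.096 ± 0.062, adjusted p = 1.23e-09). These were the last of the 8 genes past 2 on the log2 scale. That neither group of libraries overlapped the other was required by the rule for naming the largest rises. Stc1, a secreted glycoprotein hormone, rose from 43.4, 43.4 and 39.8 to 130.4, 124 and 87.8 FPKM (1.395 ± 0.13, adjusted p = 3.53e-05). Apold1, an endothelial early response gene, rose from 93.8, 79.4 and 87.3 to 240.2, 245 and 192 FPKM (1.36 ± 0.11, adjusted p = 6.15e-06). Gper1, a membrane receptor for estrogen, rose from 0.338, 0.27 and 0.214 to 3.004, 2.03 and 1.42 FPKM (1.28 ± 0.14, adjusted p = 1.20e-04). Of Stc1, Apold1 and Gper1, hypoxia replicate 3 was the lowest hypoxia library in each, and it still lay above all 3 normoxia libraries.

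mt-Nd4l, a mitochondrially encoded subunit of complex I, was listed at 0 in the 3 normoxia libraries and at 1.25, 2.7 and 2.17 FPKM in the hypoxia libraries. Its transcript shares bases with mt-Nd4, which stood at 12.5 FPKM at 21% and 13.1 FPKM at 1% oxygen and was not called, so the assignment of reads between them is uncertain and no fold is given.

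**Figure D2:**
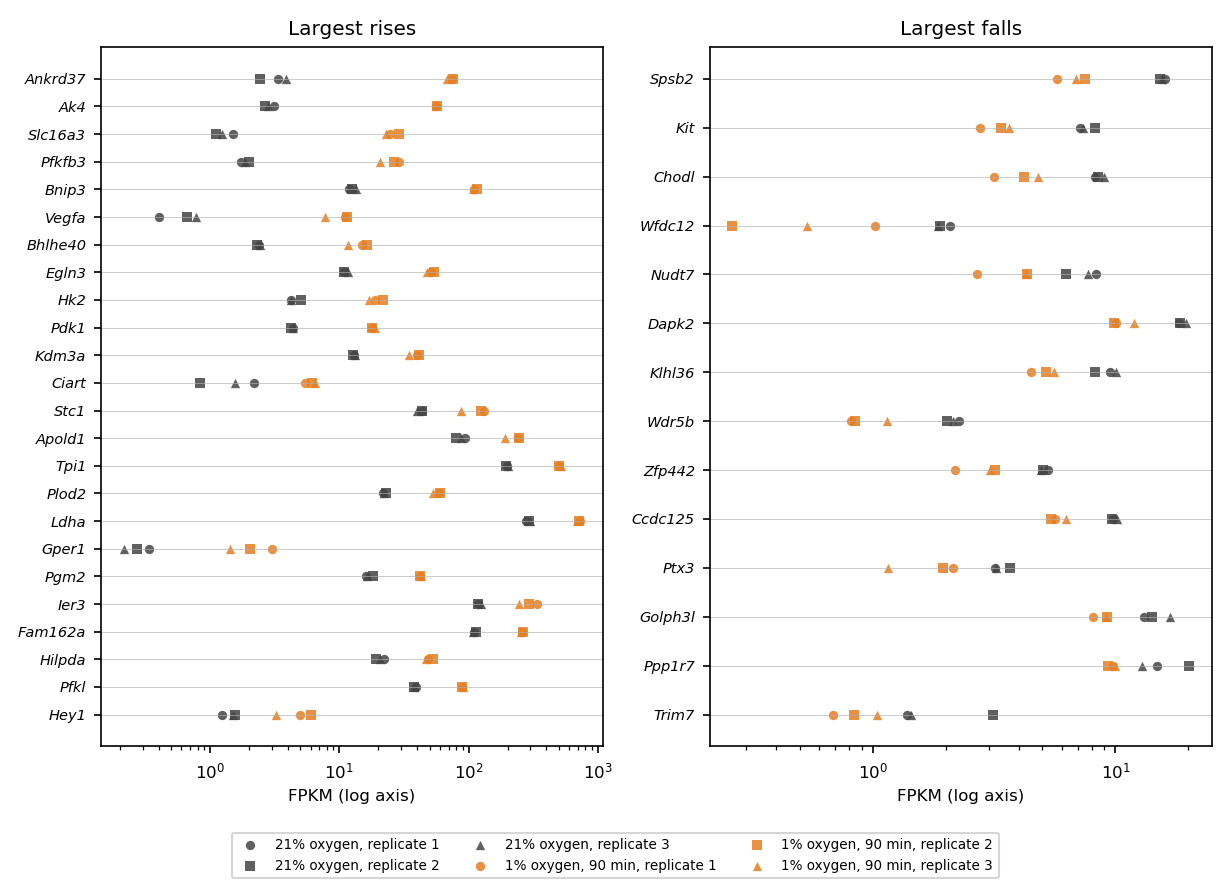
FPKM on a log axis in each of the 6 wild type libraries for named genes with the largest rises (left) and falls (right); dark symbols are 21% oxygen, orange symbols 1% oxygen, and the symbol shape gives the replicate number. Only genes without overlapping groups were chosen for display, and the separation is widest for Ankrd37, Ak4 and Slc16a3.

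The largest falls were smaller than the largest rises, and the 85 falls past 0.5 had a median level of 3.76 FPKM. Kit, the receptor for stem cell factor and a marker of lung capillary endothelium (ENSMUSG00000005672, GRCm38 chr5:75574916-75656722), stood at 7.14, 8.22 and 7.32 FPKM at 21% oxygen and 2.77, 3.37 and 3.64 FPKM at 1% oxygen, a difference of -1.01 ± 0.081 (adjusted p = 8.93e-06). Spsb2, an adaptor of an E3 ubiquitin ligase (ENSMUSG00000038451, GRCm38 chr6:124808661-124810619), stood at 16.1, 15.3 and 15.5 FPKM at 21% oxygen and 5.72, 7.52 and 6.85 FPKM at 1% oxygen, a difference of -1.12 ± 0.087 (adjusted p = 6.63e-06). Both genes had every hypoxia library under every normoxia library, which the naming rule required. Exons of Spsb2 overlap those of Tpi1 on the other strand, and Tpi1 rose. Wdr5b (2.15 ± 0.119 to 0.933 ± 0.182 FPKM; -0.71) stood in the same position beside Fam162a, which also rose. Over the 22 tested genes that overlap on the other strand a gene with a rise past 0.5, Spsb2 and Wdr5b were the 2 called lower, and 5 were called higher. Among all 2060 tested genes with such an overlap, 175 were higher and 178 lower. Other named genes that share exons with another gene, and whose values are uncertain for that reason, are Mxi1, Gys1, Slc4a2, Mlx, Acvr2a, Dusp1, Dusp3, Rbl2, Tk1, Msh6, Gnl3, Tsr1, Mir22hg, Tagln, Ppp1r7, Ing4 and Map3k11.

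Chodl, a membrane protein with a lectin domain, fell from 8.26, 8.45 and 8.94 to 3.16, 4.18 and 4.81 FPKM (-0.93 ± 0.10, adjusted p = 8.33e-05). Nudt7, a peroxisomal coenzyme A hydrolase, fell from 8.29, 6.25 and 7.67 to 2.69, 4.32 and 4.27 FPKM (-0.83 ± 0.13, adjusted p = 0.00151). Dapk2, a calmodulin-regulated kinase linked to autophagy, fell from 18.3, 18.4 and 19.6 to 10.1, 9.91 and 11.95 FPKM (-0.77 ± 0.065, adjusted p = 1.38e-05). None of these groups overlapped, which the rule for naming the largest falls required. Ptx3, a secreted pattern recognition protein, went from 3.36 ± 0.267 to 1.75 ± 0.522 FPKM (-0.68), and Wfdc12, Klhl36, Zfp442, Ccdc125 and Golph3l had differences of -0.90, -0.75, -0.69, -0.69 and -0.67. The call of Ppp1r7 (-0.64, a regulatory subunit of protein phosphatase) was lost without hypoxia replicate 1, hypoxia replicate 2 or normoxia replicate 2. That of Trim7 (-0.64, a RING finger protein) was lost without hypoxia replicate 1 or 2. Another Ensembl gene that also carries the symbol Sgsm3 (-1.27) lost its call in 7 of 15 alternatives, among them the fits without each hypoxia library and without normoxia replicate 1 or 2.

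Genes of nearly every step of glycolysis rose. Of 8 tested glucose and lactate transporters and hexokinases, 7 were higher and 0 lower, with a median difference of 0.44. Of 11 enzymes from glucose phosphate isomerase to lactate dehydrogenase, 10 were higher and 0 lower, with a median of 0.53. The summed FPKM of these 11 enzymes stood at 3395, 3412 and 3454 at 21% oxygen and at 5500, 5375 and 5336 at 1% oxygen. The 2 groups of sums did not overlap, and the list medians in hypoxia replicates 1, 2 and 3 were 0.57, 0.54 and 0.48.

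Slc2a1, the main glucose importer of endothelium, stood at 49.4, 51.1 and 49.3 FPKM at 21% oxygen and 113, 112 and 105 FPKM at 1% oxygen, a difference of 1.12 ± 0.044 (adjusted p = 1.12e-08). Hk2, the inducible hexokinase, stood at 4.2, 5.07 and 4.2 FPKM at 21% oxygen and 18.9, 21.9 and 16.9 FPKM at 1% oxygen (1.88 ± 0.10, adjusted p = 1.71e-07), and Hk1, the widely expressed isoform, rose from 56.4, 58.5 and 54.4 to 88.2, 89.8 and 87.2 FPKM (0.64 ± 0.041, adjusted p = 1.09e-06). Both hexokinases separated by group. Hk2 began at a far lower level than Hk1 and remained the lower of the pair. Slc16a1, the lactate carrier MCT1, and its chaperone Bsg rose by 0.20 and 0.18, far less than Slc16a3. Slc2a8, an intracellular glucose transporter, was the member not called (5.86 FPKM at 21% and 5.3 FPKM at 1% oxygen).

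At the phosphofructokinase step, Pfkl, the liver-type subunit, rose from 39.2, 37.5 and 37.7 to 88.5, 88.9 and 90.7 FPKM (1.21 ± 0.043, adjusted p = 4.80e-09). Pfkp, the platelet-type subunit, rose from 15.9, 12.2 and 15.1 to 26.3, 27.8 and 27.2 FPKM (0.87 ± 0.12, adjusted p = 6.43e-04), while the muscle-type Pfkm stood at 11.1 FPKM at 21% and 10.95 FPKM at 1% oxygen and was not called. Of 7 genes for phosphofructokinases and the enzymes that make or remove fructose 2,6-bisphosphate, 3 were higher and 1 lower, with a median of 0.18. Tigar, a phosphatase that lowers fructose 2,6-bisphosphate, was the one that fell (5.44 ± 0.13 to 4.54 ± 0.123 FPKM; -0.22), and its call was lost without hypoxia replicate 1 or normoxia replicate 1 or 3. Exons of Pfkp overlap Pitrm1 on the other strand, which was not called.

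Among the later enzymes, Tpi1, triose phosphate isomerase, rose from 197, 196 and 201 to 498, 502 and 515 FPKM (1.34 ± 0.042, adjusted p = 1.48e-09). Ldha, the lactate dehydrogenase subunit that favours lactate, rose from 278, 292 and 297 to 733, 715 and 691 FPKM (1.299 ± 0.041, adjusted p = 1.48e-09). Pgam1, phosphoglycerate mutase, rose from 241, 246 and 257 to 538, 520.1 and 499.6 FPKM (1.06 ± 0.038, adjusted p = 4.80e-09). These were the largest rises of the lower pathway, and every group was tight. Aldoa, aldolase, rose by 0.53 ± 0.034 from an already high level (684 FPKM at 21% and 989 FPKM at 1% oxygen). Ldhb, the lactate dehydrogenase subunit that favours pyruvate, stood at 5.89 FPKM at 21% and 4.43 FPKM at 1% oxygen and was not called (adjusted p = 0.142).

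At the step from pyruvate into mitochondria, 1 of 13 genes was higher and 1 lower, both regulators of pyruvate dehydrogenase. Pdk1, a kinase that inactivates pyruvate dehydrogenase, stood at 4.38, 4.26 and 4.36 FPKM at 21% oxygen and 17.95, 18.01 and 18.9 FPKM at 1% oxygen, a difference of 1.85 ± 0.051 (adjusted p = 1.17e-09). Pdp1, the phosphatase that reactivates the same complex, stood at 28.9, 29.9 and 29.5 FPKM at 21% oxygen and 19.8, 19.03 and 20.2 FPKM at 1% oxygen, a difference of -0.56 ± 0.056 (adjusted p = 5.66e-05). The 2 genes moved in opposite directions with no overlap between groups in either. The remaining 11 of 13 genes on the list, among them the pyruvate carriers Mpc1 (56.3 FPKM at 21% and 58.3 FPKM at 1% oxygen) and Mpc2 (44.7 FPKM at 21% and 44.02 FPKM at 1% oxygen) and the dehydrogenase subunit Pdha1 (47.5 FPKM at 21% and 48.4 FPKM at 1% oxygen), were not called.

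Side branches of glucose metabolism changed at single genes. Of 14 glycogen genes, 4 were higher and 1 lower. Pgm2, a phosphoglucomutase, rose from 16.1, 18.3 and 16.4 to 41.9, 42.4 and 42.8 FPKM (1.28 ± 0.053, adjusted p = 1.50e-08), with an exon overlap with Itgb3bp on the other strand. Gys1, glycogen synthase, rose by 0.35 ± 0.070, and Pygb, the brain-type glycogen phosphorylase, fell by 0.22 on the log2 scale. Epm2a, the glycogen phosphatase laforin (0.41), lost its call without hypoxia replicate 2 or 3 or normoxia replicate 1 or 3, and 2 glycogen genes were called higher without hypoxia replicate 2 or normoxia replicate 1 or 3. Of 14 pentose phosphate and hexosamine genes, 2 were higher and 1 lower, near the 10.5% and 10.4% over all tested genes. Ogt, which attaches N-acetylglucosamine to proteins, rose from 42.5, 43.3 and 40.6 to 65.02, 66.6 and 58.3 FPKM (0.57 ± 0.055, adjusted p = 3.53e-05), and Rpia, ribose phosphate isomerase, fell from 12.5, 12.5 and 13.5 to 9.13, 9.63 and 9.81 FPKM (-0.40 ± 0.053, adjusted p = 5.10e-04). Pgd, an enzyme of the oxidative pentose phosphate pathway (0.18), lost its call in 9 of 17 alternatives.

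**Figure D3:**
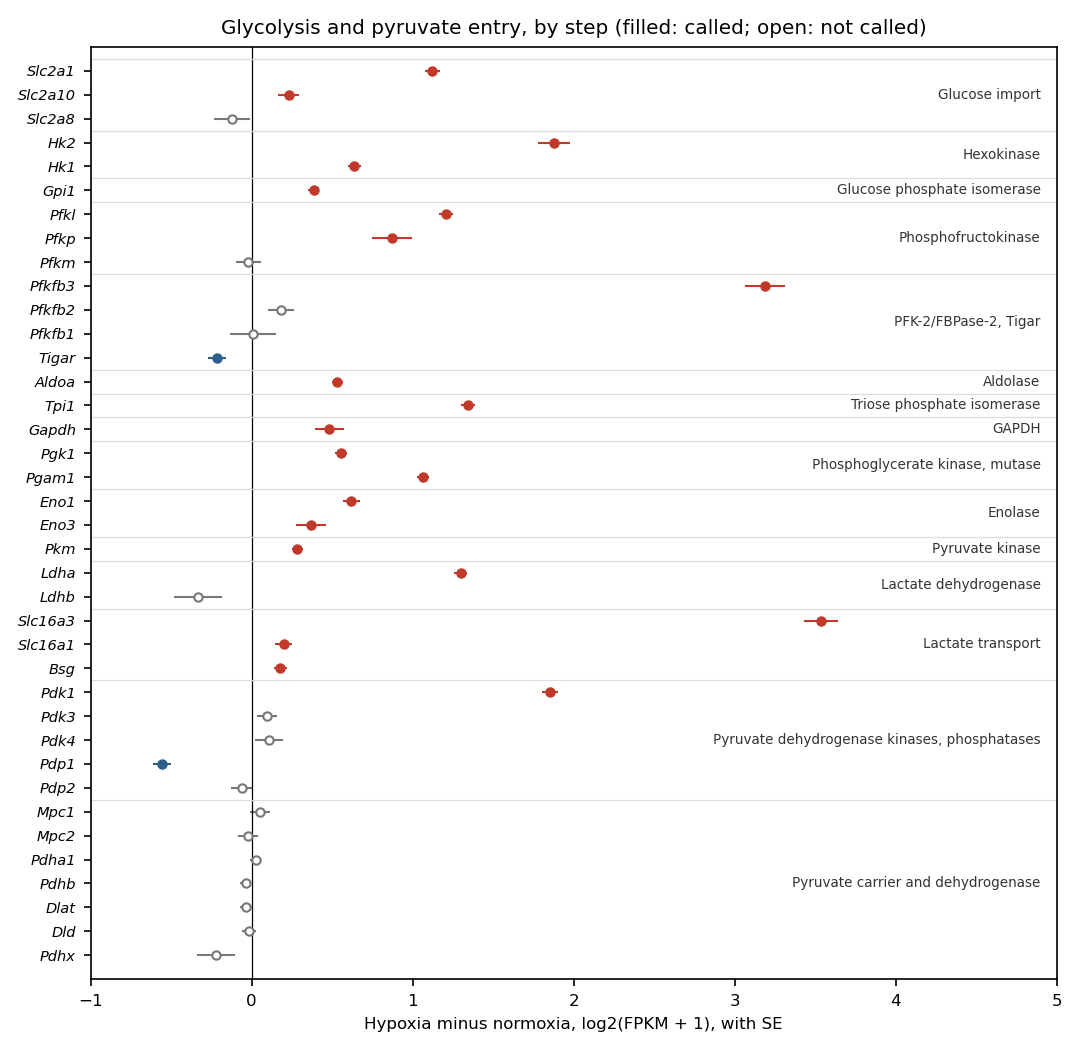
Points give the hypoxia minus normoxia difference of log2(FPKM + 1) with its standard error for genes of glucose import, glycolysis, lactate transport and pyruvate entry, ordered by step; filled red points were called higher, filled blue points lower and open points were not called. Slc16a3, Pfkfb3, Hk2 and Pdk1 lie farthest to the right, and the pyruvate carriers and dehydrogenase subunits lie near 0.

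Several genes of the oxygen-sensing circuit rose. Of 16 HIF subunits, hydroxylases and their regulators, 6 were higher and 3 lower. Egln1, the main HIF prolyl hydroxylase, rose from 11.9, 12.5 and 12.9 to 28.05, 26.95 and 26.2 FPKM (1.06 ± 0.049, adjusted p = 4.29e-08). Vhl, the substrate receptor of the ligase that removes HIF alpha, rose from 17.9, 17.97 and 17.3 to 27.8, 28.3 and 27.1 FPKM (0.62 ± 0.041, adjusted p = 1.57e-06). Hif1a itself rose by 0.44 ± 0.047 (100.5 FPKM at 21% and 137 FPKM at 1% oxygen). The 3 genes separated by group, and Egln2, another prolyl hydroxylase, stood at 57.1 FPKM at 21% and 60.6 FPKM at 1% oxygen and was not called. Cited2, which competes with HIF for its coactivator, rose by 0.74 ± 0.14, and Wsb1, a ubiquitin ligase adaptor, by 0.37 ± 0.037. Epas1, which encodes the second HIF alpha subunit, stood at 2.4 FPKM at 21% and 2.19 FPKM at 1% oxygen, and Arnt at 8.88 FPKM at 21% and 8.85 FPKM at 1% oxygen; neither was called. Limd1, Siah1a and Hif1an were the members called lower (-0.15, -0.20 and -0.21). The count of lower members was 0 without hypoxia replicate 1 or normoxia replicate 3, and 1 without hypoxia replicate 2 or normoxia replicate 1 or 2.

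Other enzymes that use oxygen and alpha-ketoglutarate, as the prolyl hydroxylases do, were called in part. Of 21 histone, DNA and RNA demethylases and related enzymes, 8 were higher and 1 lower, with a median of 0.068. Kdm3a, a demethylase of histone H3 lysine 9, stood at 12.9, 12.7 and 13.2 FPKM at 21% oxygen and 39.9, 41.3 and 34.9 FPKM at 1% oxygen (1.51 ± 0.062, adjusted p = 1.45e-08). Jmjd6, a lysyl hydroxylase, rose from 19.01, 19.9 and 20.3 to 45.2, 42.9 and 38.3 FPKM (1.05 ± 0.067, adjusted p = 1.09e-06). Alkbh5, which removes methyl groups from adenosine in RNA, rose from 20.6, 20.4 and 19.8 to 38.7, 38.8 and 35.2 FPKM (0.86 ± 0.043, adjusted p = 1.12e-07). No libraries of the 2 groups overlapped for these genes. Kdm4a, another histone demethylase, was the one that fell (29.7 ± 1.04 to 24.2 ± 0.886 FPKM; -0.28). Kdm4b, Kdm5b, Kdm2a, Kdm5a and Tet2 made up the other rises, between 0.24 and 0.52. Exons of Jmjd6 overlap Mettl23 on the other strand, which was not called.

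Collagen-modifying enzymes, many of which also use oxygen, had 5 of 13 members higher, 0 lower and a median of 0.090. Plod2, a lysyl hydroxylase for collagen cross-links, stood at 21.7, 23.1 and 22.3 FPKM at 21% oxygen and 58.6, 60.03 and 53.01 FPKM at 1% oxygen (1.32 ± 0.053, adjusted p = 1.26e-08). P4ha1, a catalytic subunit of collagen prolyl hydroxylase, rose from 70.6, 69.97 and 71.5 to 132, 125 and 128 FPKM (0.85 ± 0.051, adjusted p = 6.41e-07), and P4ha2 rose from 21.5, 22.5 and 20.9 to 40.02, 43.8 and 41.9 FPKM (0.92 ± 0.048, adjusted p = 1.52e-07). Each group was separate in these 3 genes. Plod1 rose by 0.56 ± 0.047 and Loxl2, a lysyl oxidase, by 0.25 ± 0.053. Their partner P4hb, which joins either catalytic subunit, stood at 519 FPKM at 21% and 519.7 FPKM at 1% oxygen, and the collagen chaperone Serpinh1 at 362 FPKM at 21% and 349 FPKM at 1% oxygen; neither was called. Collagens, laminins and their proteases gave 3 higher and 2 lower of 23, among them the protease Adamts1 (from 28.2, 28.5 and 26.9 to 71.2, 62.98 and 44.8 FPKM; 1.04 ± 0.15, adjusted p = 6.18e-04), Timp3 (0.39) and the laminin chain Lama4 (-0.20). With equal library medians the count of higher members was 5, and Col5a1 (-0.21) lost its call in 10 of 16 alternatives, among them the fits without hypoxia replicate 1, 2 or 3 or normoxia replicate 1 or 2.

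Of 11 mitochondrial genes tied to low oxygen, 5 were higher and 1 lower. Besides Ak4, Fam162a, a mitochondrial protein linked to cell death in hypoxia, rose from 110.1, 113 and 108 to 258, 264 and 254 FPKM (1.22 ± 0.041, adjusted p = 2.94e-09). Higd1a, which binds respiratory complexes, rose from 23.3, 20.6 and 21.5 to 47.3, 48.9 and 48.9 FPKM (1.12 ± 0.067, adjusted p = 6.38e-07). Hilpda, a lipid droplet protein that blocks triglyceride breakdown, rose from 22.2, 19.2 and 20.8 to 48.9, 53.5 and 46.5 FPKM (1.22 ± 0.10, adjusted p = 1.23e-05). All 3 separated by group. Lonp1, the mitochondrial protease, rose by 0.30 ± 0.043. Of 40 nuclear subunits of the respiratory chain, 0 were called in either direction, as were 0 of 22 genes of the citric acid cycle and glutamine entry. Atp5b (989 FPKM at 21% and 994 FPKM at 1% oxygen), a subunit of ATP synthase, and Glud1 (343 FPKM at 21% and 333 FPKM at 1% oxygen), glutamate dehydrogenase, are examples. Under quantile normalization 3 members of each of those lists were lower. Among 11 mitochondrially encoded genes, mt-Atp8 (1.05) was called besides mt-Nd4l, and it lost its call in 10 of 16 alternatives, among them the fits without any 1 hypoxia library and without normoxia replicate 1 or 3.

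Mitophagy and autophagy genes had 4 of 26 higher and 2 lower, near the shares over all tested genes (10.5% and 10.4%). Bnip3l, the relative of Bnip3 also called NIX, rose from 60.4, 58.7 and 59.3 to 80.5, 80.4 and 77.9 FPKM (0.41 ± 0.032, adjusted p = 5.73e-06). Nbr1 and Optn, cargo receptors of autophagy, fell by 0.22 and 0.17 on the log2 scale, and Optn lost its call without normoxia replicate 1. The adaptor Sqstm1 stood at 829.8 FPKM at 21% and 887 FPKM at 1% oxygen and Map1lc3b at 157 FPKM at 21% and 157 FPKM at 1% oxygen; neither was called. The higher count was 2 without hypoxia replicate 1 and 2 under quantile normalization. Of 10 adenylate kinase and AMP-sensing genes, 4 were higher and 0 lower, among them Ak4, Ak6 (0.15, whose exons overlap Taf9 and Rad17) and the kinase subunit Prkaa1 (0.13), which lost its call in 7 of 17 alternatives.

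Of 11 carbonic anhydrases and acid-base transporters, 2 were higher and 2 lower, beside 10.5% and 10.4% over all tested genes. Car2, a carbonic anhydrase of the cytosol, fell from 86.1, 81.3 and 95.6 to 65.98, 61.8 and 59.7 FPKM (-0.48 ± 0.061, adjusted p = 3.37e-04). Car9, the hypoxia-inducible carbonic anhydrase of many tumour cells, stood at 1.16 FPKM at 21% and 1.38 FPKM at 1% oxygen and was not called. Slc4a2, an anion exchanger, and Slc4a7, a bicarbonate importer, had differences of 0.22 and -0.18, and Car8 (0.16) lost its call in 6 of 17 alternatives. Of 15 iron genes, 2 were higher, near the share over all tested genes, and 0 lower. The 2 were Ncoa4, the ferritin autophagy receptor (0.19), and Hmox1, haem oxygenase (0.12). Both lost the call without hypoxia replicate 1 or 2 or normoxia replicate 1, and the iron importer Tfrc stood at 17.8 FPKM at 21% and 17.8 FPKM at 1% oxygen. Among 13 inhibitors of mTOR and of growth, 3 were higher and 2 lower. Ddit4, the mTOR inhibitor REDD1, stood at 33.2, 33.2 and 35.2 FPKM at 21% oxygen and 54.7, 58.1 and 53.2 FPKM at 1% oxygen (0.69 ± 0.066, adjusted p = 3.53e-05). Its groups did not overlap. Eif4ebp1, the translation repressor, rose by 0.28 ± 0.042, Sesn1 fell (-0.31), and Fnip1 (0.12) lost its call without any 1 of the 6 libraries.

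Of the clock genes, 7 of 16 were higher and 1 lower, with a median of 0.19. Ciart, a repressor of the clock, stood at 2.19, 0.83 and 1.55 FPKM at 21% oxygen and 5.39, 6.1 and 6.48 FPKM at 1% oxygen (1.504 ± 0.16, adjusted p = 9.11e-05). Rora, a nuclear receptor that activates Arntl, rose from 3.04, 3.35 and 2.91 to 7.77, 8.55 and 7.54 FPKM (1.13 ± 0.067, adjusted p = 6.35e-07). Nr1d2, a nuclear receptor that represses it, rose by 0.30 ± 0.043. Both Ciart and Rora separated by group, and normoxia replicate 2 had the lowest Ciart value. Per1 (1.22 FPKM at 21% and 2.14 FPKM at 1% oxygen, adjusted p = 0.169), Clock (16.5 FPKM at 21% and 18.1 FPKM at 1% oxygen) and Arntl (7.44 FPKM at 21% and 8.09 FPKM at 1% oxygen) were not called. In the MYC network, 3 of 11 were higher and 1 lower. Mxi1, a MAX partner that opposes MYC, rose from 5.96, 6.51 and 5.86 to 13.98, 14.7 and 12.6 FPKM (1.05 ± 0.069, adjusted p = 1.55e-06), Mxd1, with the same role, by 0.65 ± 0.10, and Max by 0.35 ± 0.058. Myc itself stood at 3.92 FPKM at 21% and 3.38 FPKM at 1% oxygen and was not called. Mlx (-0.28) lost its call without hypoxia replicate 1.

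In the VEGF family, 5 of 9 were higher and 1 lower, with a median of 0.23. Beyond Vegfa, Pgf, placental growth factor, rose from 238, 233 and 236 to 279, 298 and 279 FPKM (0.28 ± 0.032, adjusted p = 1.74e-04). Kdr, the main signalling receptor for VEGF-A, fell from 75.5, 82.7 and 74.7 to 64.5, 69.2 and 67.7 FPKM (-0.21 ± 0.049, adjusted p = 0.0126), and Flt4, the receptor for VEGF-C, rose by 0.29 ± 0.069. Flt1, the decoy receptor, rose by 0.25 ± 0.062. Pgf separated by group, and the groups of Kdr lay close to each other. The call of Kdr was lost without hypoxia replicate 1, and that of Flt4 without hypoxia replicate 1 or 2 or normoxia replicate 3; the family had 3 higher members in each of those 3 fits. Vegfb (4.22 FPKM at 21% and 4.56 FPKM at 1% oxygen) and Vegfc (2.07 FPKM at 21% and 2.15 FPKM at 1% oxygen) were not called.

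Angiopoietin, apelin and tip cell genes gave 7 higher of 18 and 0 lower, with a median of 0.080. Plaur, the urokinase receptor, rose from 184, 176 and 180.2 to 243, 232 and 236 FPKM (0.39 ± 0.036, adjusted p = 2.39e-05). Adm, the vasodilator peptide adrenomedullin, rose from 313, 307 and 300.4 to 399, 385 and 378 FPKM (0.34 ± 0.047, adjusted p = 6.20e-04). Angptl4, a secreted inhibitor of lipoprotein lipase, rose by 0.41 ± 0.060, Esm1, a tip cell proteoglycan, by 0.34 ± 0.066, and the chemokine receptor Cxcr4 by 0.22 ± 0.048. The groups of Plaur and Adm did not overlap. Angpt2 (1391 FPKM at 21% and 1366 FPKM at 1% oxygen) and Apln (190.0 FPKM at 21% and 192 FPKM at 1% oxygen), which encode ligands of the tip cell, were abundant and not called.

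Of 13 Notch genes, 4 were higher and 1 lower. Hey1, a repressor induced by Notch, stood at 1.24, 1.56 and 1.51 FPKM at 21% oxygen and 4.94, 6.003 and 3.23 FPKM at 1% oxygen (1.21 ± 0.16, adjusted p = 4.15e-04). Dll4, the Notch ligand of tip cells, rose from 3.19, 3.23 and 3.57 to 6.2, 6.58 and 5.86 FPKM (0.74 ± 0.083, adjusted p = 1.38e-04), and Hes1, another Notch target, rose by 0.49 ± 0.074. Lfng, a sugar transferase that tunes Notch receptors, fell from 4.72, 3.94 and 5.1 to 2.07, 2.54 and 3.38 FPKM (-0.62 ± 0.12, adjusted p = 0.00386). All 4 separated by group. Notch1 (8.41 FPKM at 21% and 7.05 FPKM at 1% oxygen), Notch4 (15.8 FPKM at 21% and 15.7 FPKM at 1% oxygen) and Jag1 (28.1 FPKM at 21% and 27.5 FPKM at 1% oxygen) were not called. Exons of Dll4 overlap Gm14207 on the other strand, which was not called.

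Krueppel-like factors and connexins, known for their response to flow, gave 5 higher of 15 and 1 lower. Klf2 rose from 3.12, 3.22 and 3.11 to 6.4, 6.45 and 4.14 FPKM (0.66 ± 0.12, adjusted p = 0.00362), Klf4 from 17.9, 19.1 and 20.7 to 31.4, 32.7 and 25.1 FPKM (0.59 ± 0.11, adjusted p = 0.0028), and the connexin gene Gja4 from 0.428, 0.868 and 0.66 to 1.27, 1.68 and 1.79 FPKM (0.65 ± 0.12, adjusted p = 0.00298). Each of the 3 separated by group, and Gja4 was the least expressed of them. Nos3, endothelial nitric oxide synthase, stood at 20.6 FPKM at 21% and 21.7 FPKM at 1% oxygen and was not called. Klf9 (0.20) lost its call without hypoxia replicate 1 or 2 or normoxia replicate 1 or 3, and 3 members were higher in each of those fits.

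Genes of vascular tone gave 6 higher of 13 and 1 lower, with a median of 0.25. Ednrb, the endothelin receptor of endothelium, rose from 15.2, 15.2 and 14.6 to 32.1, 31.5 and 23.9 FPKM (0.90 ± 0.12, adjusted p = 4.25e-04). Ptgs2, the inducible cyclooxygenase, rose from 6.04, 6.9 and 5.59 to 15.6, 11.8 and 9.9 FPKM (0.89 ± 0.13, adjusted p = 8.39e-04), and Calcrl, the receptor for adrenomedullin, from 79.7, 72.2 and 75.4 to 105, 101 and 102 FPKM (0.43 ± 0.046, adjusted p = 8.33e-05). The groups did not overlap for these 3 genes. Edn1, which encodes the constrictor endothelin, stood at 75.4 FPKM at 21% and 70.9 FPKM at 1% oxygen and was not called. Ece1, which processes endothelin, was listed at 5462 FPKM at 21% and 8056 FPKM at 1% oxygen and not called (adjusted p = 0.278). With transcripts under 300 bases left out of the gene sums, 7 of the 13 were higher and the list median was 0.18.

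BMP and TGF-beta genes had 4 of 26 higher and 5 lower, beside 10.5% and 10.4% over all tested genes. Acvrl1, the BMP receptor ALK1, rose by 0.22 ± 0.042, and the receptors Acvr2a and Tgfbr1 fell (-0.28 and -0.19). Bmpr2 (8.43 FPKM at 21% and 9.54 FPKM at 1% oxygen) and Eng (99.7 FPKM at 21% and 110.0 FPKM at 1% oxygen) were not called. Higher members numbered 2 without hypoxia replicate 1 or 2 or normoxia replicate 2 or 3. Lower members numbered 1 and 2 without hypoxia replicates 1 and 2, and 3 without normoxia replicate 2 or 3; Tgfbr1 lost its call without hypoxia replicate 1.

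Immediate early and AP-1 genes rose more often than they fell, with 13 of 29 higher, 1 lower and a median of 0.16. Ier3, an early response gene, stood at 119, 119 and 124 FPKM at 21% oxygen and 336, 295 and 244 FPKM at 1% oxygen (1.25 ± 0.087, adjusted p = 2.51e-06). Junb, an AP-1 subunit, rose from 30.7, 28.9 and 31.1 to 67.2, 72.02 and 55.05 FPKM (1.07 ± 0.094, adjusted p = 1.96e-05), and Maff, a small MAF factor, from 65.4, 60.4 and 63.04 to 115, 101 and 100.2 FPKM (0.73 ± 0.060, adjusted p = 1.10e-05). Every hypoxia library exceeded every normoxia library in these genes. Errfi1, an inhibitor of the EGF receptor, rose by 0.57 ± 0.042, and Jun by 0.14 ± 0.044. Atf3 (7.38 FPKM at 21% and 8.52 FPKM at 1% oxygen) and Fosl1 (1.9 FPKM at 21% and 2.15 FPKM at 1% oxygen) were not called. Zfp36l2 (-0.27) was the member called lower, and under quantile normalization 3 were lower. Junb overlaps Prdx2 on the other strand, which was not called.

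In the MAP kinase cascade, to which MLK2 and MLK3 belong, 6 of 32 genes were higher and 1 lower. Map2k1, the kinase MEK1 upstream of ERK, rose from 53.3, 51.7 and 52.9 to 83.5, 81.7 and 81.3 FPKM (0.63 ± 0.032, adjusted p = 1.12e-07). Mapk8, the kinase JNK1, rose from 19.4, 17.03 and 18.6 to 22.3, 24.5 and 23.9 FPKM (0.35 ± 0.058, adjusted p = 0.00192), and Mapk6 rose by 0.28 ± 0.046. Map3k4, a kinase upstream of JNK and p38, was the one that fell (8.09 ± 0.355 to 6.15 ± 0.333 FPKM; -0.35). None of these groups overlapped, and 3 members were higher without hypoxia replicate 1. Mapk3 and Mapk14 were not called. Of 19 MAP kinase phosphatases, Sprouty and PEA3 genes, 5 were higher and 2 lower. Dusp6, the ERK phosphatase, fell from 42.8, 38.7 and 40.1 to 22.96, 24.7 and 31.1 FPKM (-0.62 ± 0.087, adjusted p = 6.37e-04), Dusp9 fell from 3.46 ± 0.0609 to 2.17 ± 0.192 FPKM (-0.49), and Dusp1 rose from 34.3, 32.5 and 30.2 to 43.8, 48.01 and 40.1 FPKM (0.43 ± 0.061, adjusted p = 6.94e-04). Dusp3 rose by 0.31 ± 0.056. Higher members numbered 3 without hypoxia replicate 2 or normoxia replicate 2 or 3.

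Among 26 NF-kB subunits, inhibitors and cytokines, 8 were higher and 3 lower. Tnfaip3, the ubiquitin-editing inhibitor A20, rose from 1.09, 1.07 and 1.14 to 3.91, 3.35 and 3.07 FPKM (1.08 ± 0.12, adjusted p = 9.36e-05). Nfkbiz, an atypical nuclear inhibitor protein, rose from 12.2, 11.1 and 11.8 to 19.9, 18.5 and 15.2 FPKM (0.57 ± 0.086, adjusted p = 0.00109), and Cxcl12, a chemokine, by 0.44 ± 0.089. Nfkbie, another inhibitor, fell from 4.56, 4.97 and 4.46 to 2.79, 3.22 and 3.36 FPKM (-0.46 ± 0.083, adjusted p = 0.00287). The groups were separate in all 4. The adhesion molecules Icam1 (38.1 FPKM at 21% and 40.3 FPKM at 1% oxygen) and Vcam1 (8.95 FPKM at 21% and 8.14 FPKM at 1% oxygen) and the chemokine Ccl2 (881 FPKM at 21% and 795 FPKM at 1% oxygen) were not called. The higher count was 4 without any 1 of hypoxia replicates 1, 2 and 3 and normoxia replicate 1, and 5 without normoxia replicate 3.

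Chaperone genes gave 9 higher of 26 and 0 lower. Hspa1b, an inducible heat shock protein, rose from 112, 101 and 101 to 208, 172 and 151 FPKM (0.75 ± 0.094, adjusted p = 3.05e-04). Hspa1a, its near-identical neighbour, rose from 5.58, 6.01 and 6.22 to 12.97, 10.2 and 9.73 FPKM (0.78 ± 0.088, adjusted p = 1.45e-04), and reads shared between the pair make the split uncertain. Both groups were separate in each gene. Hspa9, a mitochondrial chaperone, and Hspa4l rose by 0.24 ± 0.032 and 0.24 ± 0.039. Hsp90aa1 (270.0 FPKM at 21% and 287 FPKM at 1% oxygen) and Hspa8 (1491 FPKM at 21% and 1390.5 FPKM at 1% oxygen) were not called.

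The unfolded protein and integrated stress responses gave 12 higher of 35 and 2 lower. Nupr1, a stress-induced nuclear protein, rose from 65.7, 55.1 and 57.8 to 172, 129 and 109 FPKM (1.16 ± 0.13, adjusted p = 1.20e-04). Ero1l, the oxidase that drives disulfide formation, rose from 19.03, 20.8 and 20.7 to 39.2, 41.5 and 33.7 FPKM (0.88 ± 0.069, adjusted p = 6.86e-06), and Vldlr, a lipoprotein receptor, from 21.5, 20.8 and 23.6 to 35.6, 42.4 and 36.4 FPKM (0.77 ± 0.089, adjusted p = 1.64e-04). The groups did not overlap. Ppp1r15a, which restores translation after stress, rose by 0.52 ± 0.053, and Atf4, the central factor of the integrated response, by 0.40 ± 0.048. Hspa5 (459.5 FPKM at 21% and 438 FPKM at 1% oxygen) and Xbp1 (49.6 FPKM at 21% and 47.7 FPKM at 1% oxygen), markers of the unfolded protein response, were not called, nor was the ATF4 target Asns (20.00 FPKM at 21% and 20.4 FPKM at 1% oxygen). The higher count was 7 without hypoxia replicate 1 or normoxia replicate 1. The lower count was 4 without hypoxia replicate 3 and 8 under quantile normalization.

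Of 22 NRF2 antioxidant genes, 8 were higher and 0 lower. Gclc, which starts glutathione synthesis, rose from 19.9, 19.7 and 19.2 to 31.1, 30.3 and 28.8 FPKM (0.59 ± 0.041, adjusted p = 2.65e-06), and the others rose by less: Keap1 by 0.17 ± 0.037, Gsr by 0.16 ± 0.037 and Nqo1 by 0.14 ± 0.032. The groups of Gclc did not overlap. Nqo1 lost its call under quantile normalization. The higher count was 4 without hypoxia replicate 1 or 2, 4 under quantile normalization and 5 without normoxia replicate 1 or 2. Of 22 p53 targets, 4 were higher and 2 lower, with rises of 0.33 ± 0.031 for the p53 ligase gene Mdm2, 0.39 ± 0.039 for Plk2 and 0.31 ± 0.043 for Cdkn1a.

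Genes of DNA replication, mitosis and repair were lower or not called. Of 51 S phase genes, 0 were higher and 22 lower, with a median of -0.18, and the medians in hypoxia replicates 1, 2 and 3 were -0.18, -0.22 and -0.17. Of 35 mitotic genes, 0 were higher and 9 lower (median -0.12), and of 29 genes of homologous recombination and the Fanconi pathway, 0 were higher and 11 lower (median -0.21). Exo1, an exonuclease of replication and repair, stood at 6.49, 8.89 and 9.83 FPKM at 21% oxygen and 4.97, 4.68 and 5.87 FPKM at 1% oxygen (-0.59 ± 0.12, adjusted p = 0.00553). Xrcc2, a gene of homologous recombination, fell from 3.63, 3.37 and 3.29 to 1.44, 2.04 and 2.5 FPKM (-0.58 ± 0.11, adjusted p = 0.00406), and Brca1 fell by 0.42 on the log2 scale. Both Exo1 and Xrcc2 separated by group.

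The other falls in these lists were smaller. Pole, a DNA polymerase, fell from 27.3, 27.7 and 27.6 to 21.7, 22.4 and 21.7 FPKM (-0.32 ± 0.049, adjusted p = 0.00119), and Rpa2, which coats single-stranded DNA, from 22.5, 22.9 and 23.2 to 18.1, 18.4 and 19.4 FPKM (-0.28 ± 0.055, adjusted p = 0.00471). Tk1, thymidine kinase, had -0.23 ± 0.045, and the mismatch repair gene Msh6 had -0.36 ± 0.044. Fancg had -0.34 ± 0.055, and Aurkb, a mitotic kinase, -0.34 ± 0.060. Pole and Rpa2 separated by group. The proliferation marker Mki67 (6.92 FPKM at 21% and 6.3 FPKM at 1% oxygen) and Cdk1 (57.7 FPKM at 21% and 55.4 FPKM at 1% oxygen) were not called. Top2a, Aurka and Ube2c were called lower (-0.22, -0.23 and -0.21), and each lost its call without hypoxia replicate 1 or normoxia replicate 2. The lower count of the S phase list was 12 without hypoxia replicate 2 or normoxia replicate 3. That of the mitotic list was 2 without hypoxia replicate 1 or 2 or normoxia replicate 2 or 3, and that of the repair list was 6 without hypoxia replicate 1 and 7 without hypoxia replicate 2 or normoxia replicate 3.

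Regulators of G1 had 3 of 19 higher and 4 lower, beside 10.5% and 10.4% over all tested genes. Cdkn1b, the CDK inhibitor p27, rose from 46.02, 44.7 and 46.6 to 74.4, 77.2 and 67.4 FPKM (0.66 ± 0.055, adjusted p = 1.24e-05). Ccng2, an atypical cyclin linked to arrest, rose from 51.5, 53.4 and 55.2 to 77.7, 79.6 and 78.7 FPKM (0.55 ± 0.040, adjusted p = 3.73e-06). Rbl2, a pocket protein, fell by 0.26 on the log2 scale. Both rises separated by group, while the cyclin gene Ccnd1 (448 FPKM at 21% and 469 FPKM at 1% oxygen) was not called. The lower count was 2 without hypoxia replicate 1 or normoxia replicate 2 or 3, and 1 without hypoxia replicate 2 or normoxia replicate 1.

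The share of lower calls differed by expression level and was high in zinc finger genes. It was 9.29% among tested genes with a mean of 1 to 3 FPKM, 14.5% at 3 to 10 FPKM, 12.5% at 10 to 30 FPKM, 6.10% at 30 to 100 FPKM and 1.49% at 100 FPKM or more. The shares called higher in these classes were 4.03%, 6.71%, 11.8%, 17.6% and 14.6%. Of 292 tested genes named Zfp with a number, 7 were higher and 88 lower, with a median of -0.18. Within the class of 3 to 10 FPKM, 50 of 138 Zfp genes were lower against 403 of 2976 other genes, and their medians were -0.20 and -0.039. The Zfp medians in hypoxia replicates 1, 2 and 3 were -0.19, -0.16 and -0.14. Without hypoxia replicate 1, 55 Zfp genes were lower.

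RNA-processing genes split. Of 28 SR proteins, their kinases and related RNA-binding proteins, 8 were higher and 5 lower. Srsf5 rose from 107, 100.2 and 101 to 156, 148 and 147 FPKM (0.54 ± 0.039, adjusted p = 3.46e-06), and the helicase gene Ddx5 rose by 0.32 ± 0.032. Tra2a, a splicing activator, fell from 79.5, 76.5 and 81.4 to 49.98, 47.8 and 57.4 FPKM (-0.61 ± 0.062, adjusted p = 6.32e-05). Srsf5 and Tra2a both separated by group. Srsf2 rose by 0.24 ± 0.030, with exons that overlap Mettl23 and Mfsd11 on the other strand, and Srsf7, Srsf10 and Tra2b fell (-0.35, -0.29 and -0.36). Of 18 named long non-coding RNAs, 7 were higher and 0 lower, among them Snhg1 (0.42), Mir22hg (0.39), H19 (0.34) and Snhg12 (0.38). The last 2 lost their calls without hypoxia replicate 1 or 2, and the list had 3 higher without hypoxia replicate 1 or normoxia replicate 2 or 3 and 2 without hypoxia replicate 2. Malat1 stood at 4650.2 FPKM at 21% and 5114 FPKM at 1% oxygen and was not called.

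Of 33 ribosome biogenesis genes, 8 were higher and 0 lower, led by the nucleolar GTPase Gnl3 (from 22.4, 22.8 and 23.4 to 39.7, 36.04 and 30.6 FPKM; 0.60 ± 0.075, adjusted p = 2.77e-04) and the helicase Ddx21 (0.29 ± 0.047). Pes1 and Tsr1 (0.17 and 0.19) lost their calls without hypoxia replicate 1. The list had 2 higher without that library, 5 without normoxia replicate 1 and 4 without normoxia replicate 2 or 3. Of 20 cytosolic tRNA synthetases, Cars was lower (-0.19) and Gars higher (0.11), the latter lost in 8 of 17 alternatives. Of 24 cholesterol genes, 0 were called. Over all tested genes limma gave 3909 with an unadjusted p under 0.05.

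Genes of fatty acid handling gave 9 higher of 27 and 1 lower, with a median of 0.13. Lpin2, a phosphatidate phosphatase, rose from 28.7, 26.2 and 27.8 to 40.5, 39.7 and 36.8 FPKM (0.49 ± 0.046, adjusted p = 3.53e-05). Fabp5, a fatty acid binding protein, rose from 683, 601 and 665 to 812, 789 and 814 FPKM (0.31 ± 0.049, adjusted p = 0.00132), and the fatty acid receptor gene Cd36 rose by 0.55 ± 0.11. Pparg, a nuclear receptor for fatty acids, rose by 0.71 ± 0.16. The groups of Lpin2 and Fabp5 did not overlap. Plin3, a lipid droplet coat protein, was the one that fell (-0.31), and Fabp4 (1755 FPKM at 21% and 1941 FPKM at 1% oxygen), a marker of microvascular endothelium, was not called.

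Actin and YAP target genes gave 7 higher of 23 and 1 lower. Cyr61, a matricellular YAP target, rose from 51.1, 56.7 and 47.6 to 82.7, 78.4 and 63.4 FPKM (0.52 ± 0.11, adjusted p = 0.00769). Tead4, a DNA-binding partner of YAP, rose by 0.57 ± 0.091, and Amotl1, which holds YAP in the cytoplasm, fell by 0.17 on the log2 scale. The groups of Cyr61 were separate. Ctgf (0.17) lost its call without hypoxia replicate 1 or normoxia replicate 1 or 3. The higher count was 2 without hypoxia replicate 1 or normoxia replicate 1 or 3, 3 without hypoxia replicate 2 and 4 under quantile normalization. Tagln, an actin-binding protein that also marks mural cells, stood at 24.99, 32.5 and 25.6 FPKM at 21% oxygen and 41.5, 36.7 and 31.9 FPKM at 1% oxygen (0.40 ± 0.11, adjusted p = 0.0261), with overlapping groups.

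**Figure D4:**
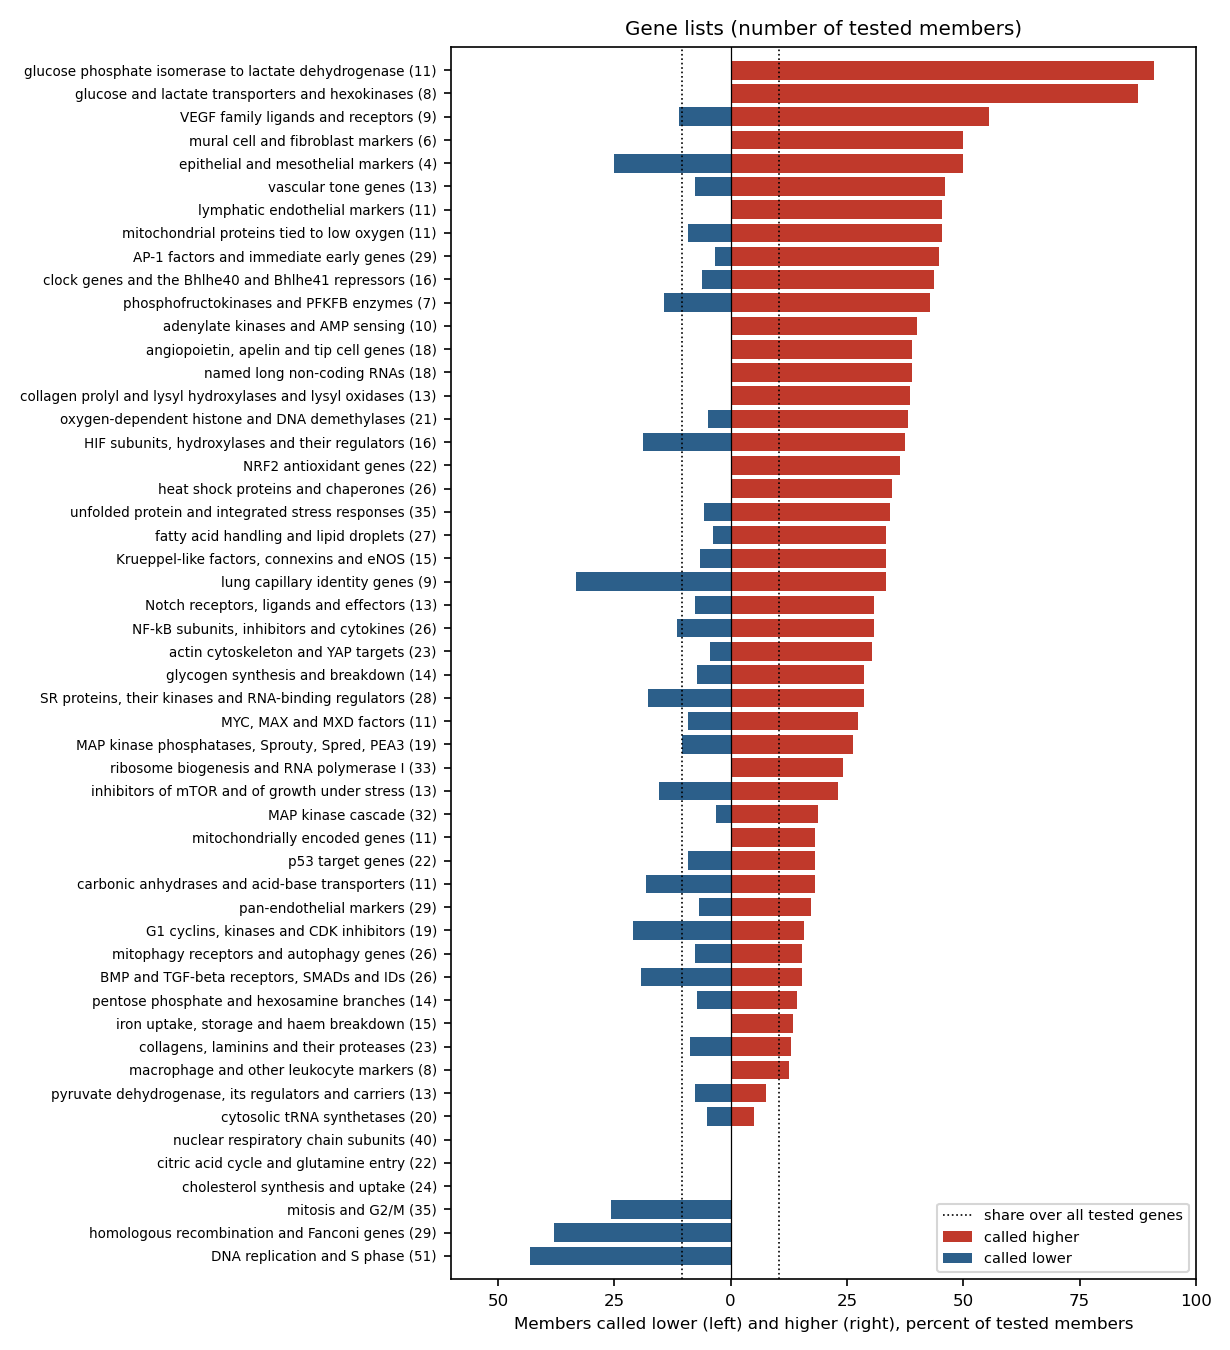
Bars give the percent of tested members called higher (red, right) and lower (blue, left) in each of 52 gene lists, with the number of tested members in brackets; dotted lines mark the shares over all 11378 tested genes. Glycolysis lists stand at the top with 10 of 11 and 7 of 8 higher, and DNA replication stands at the bottom with 22 of 51 lower.

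Endothelial markers stood at similar levels at both oxygen levels. The summed FPKM of 12 endothelial markers was 3089 to 3153 at 21% oxygen and 3082 to 3203 at 1% oxygen. On a longer list of 29 endothelial genes, 5 were higher and 2 lower, with Clec14a (0.32 ± 0.060), Icam2 (0.26 ± 0.040) and Ecscr (0.18 ± 0.036) up and Tal1, a blood and endothelial factor, down (-0.21 ± 0.047). Pecam1 (554 FPKM at 21% and 565 FPKM at 1% oxygen) and Cdh5 (149 FPKM at 21% and 161 FPKM at 1% oxygen), the junction proteins that define endothelium, were not called. Of 18 lung capillary genes listed, 9 had a mean under 1 FPKM and were not tested, among them Car4 and Prx. Of the 9 tested, 3 were higher and 3 lower. Ednrb and Hilpda, both described above with other lists, rose while Kit fell. Gpihbp1, the lipoprotein lipase anchor (0.54), lost its call without hypoxia replicate 2. The list had 1 lower member without hypoxia replicate 1 or 2 or normoxia replicate 1 or 2.

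Lymphatic endothelial genes gave 5 higher of 11 and 0 lower, with a median of 0.29. Prox1, the factor that specifies lymphatic endothelium, stood at 24.5, 24.8 and 22.5 FPKM at 21% oxygen and 34.7, 39.4 and 30.9 FPKM at 1% oxygen (0.52 ± 0.087, adjusted p = 0.00183). Nts, the peptide neurotensin, rose from 29.3, 28.00 and 29.2 to 44.7, 48.6 and 46.1 FPKM (0.67 ± 0.079, adjusted p = 1.85e-04), and the integrin gene Itga9 by 0.35 ± 0.091. The groups of Prox1 and Nts did not overlap. The list median was 0.34 and 0.36 in hypoxia replicates 1 and 2 and 0.06 in replicate 3. The higher count was 2 without hypoxia replicate 1 or 2 and 3 without normoxia replicate 3, and Itga9 lost its call without hypoxia replicate 1 or 2 or normoxia replicate 1. The summed FPKM of 7 lymphatic markers was 745 to 766 at 21% oxygen and 799 to 901 at 1% oxygen. In bulk RNA, a change in the number of cells of a type and a change in RNA per cell cannot be told apart.

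Markers of other cell types were low, and their part in the results was not tested. The sum of 10 mural and fibroblast markers was 29.2 to 38.2 FPKM at 21% oxygen and 36.4 to 47.4 FPKM at 1% oxygen, most of it from Tagln, while Lum was listed at 0 in all 6 libraries and Pdgfrb stayed at or below 0.24 FPKM. Of 6 tested genes on the longer mural list 3 were higher: Kcnj8 (0.43), Tagln and Abcc9 (0.24); Abcc9 lost its call in 8 of 16 alternatives, and 1 gene was higher without hypoxia replicate 1 or 2 or normoxia replicate 1 or 3. The sum of 9 leukocyte markers was 21.3 to 30.1 and 29.4 to 30.4 FPKM, most of it from Lyz2, with Ptprc at or below 0.31 FPKM. Of 8 tested genes on the longer leukocyte list, Cd14 was called (0.17), and it lost its call in 7 of 17 alternatives. The sum of 8 epithelial and mesothelial markers was 1.21 to 1.53 and 2.52 to 2.86 FPKM, most of it from Ager, and Sftpc and Scgb1a1 were listed at 0 throughout. Ager, the receptor for glycation end products, rose from 0.995, 0.973 and 1.08 to 2.62, 2.34 and 2.35 FPKM (0.77 ± 0.073, adjusted p = 3.53e-05), Krt19 rose by 0.75 ± 0.13, and Hopx (-0.51) lost its call without hypoxia replicate 1 or normoxia replicate 1.

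Few transcripts were called for their share of a gene. Among 11083 tested transcripts of 4079 genes, limma's diffSplice called 137 transcripts (1.24%) in 100 genes. Shares did not overlap between groups for 117 of the 137, which rests on the same values as the test. A second test, limma on the log2 ratio of each transcript to the rest of its gene, chosen after seeing the data, called 4 transcripts (0.0361%) in 3 genes, Dido1, Spsb2 and Pfkfb3, with 912 at an unadjusted p under 0.05. The genes named by the smallest diffSplice p were Dhx30, Zfpl1, Dido1, Spsb2, Ube2d3, Rbmx, Pfkfb3, Kdm2a, Tug1 and Csnk1e.

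Dido1, a chromatin-associated gene linked to differentiation, moved toward its longer transcript. The 8723-base transcript ENSMUST00000087517 made up 60.5%, 58.5% and 61.4% of the gene's summed FPKM at 21% oxygen and 73.0%, 74.2% and 71.6% at 1% oxygen (limma ratio test, adjusted p = 0.044). The 4613-base ENSMUST00000103055 went from 30.15%, 30.80% and 30.01% to 17.8%, 18.1% and 19.7%. The groups did not overlap for either transcript. In Spsb2, the 1219-base ENSMUST00000052727 went from 84.4%, 82.8% and 83.2% to 65.8%, 74.1% and 62.5%. The 1322-base ENSMUST00000112473 of Spsb2 stayed at 1.199, 1.187 and 1.929 against 1.23, 1.64 and 1.84 FPKM, so the fall of the gene lay in the first transcript.

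In Pfkfb3, the transcript called by the ratio test was the 1971-base ENSMUST00000114845. The fitted change of its log2 ratio to the rest of the gene was -2.01. The test adds 1 FPKM to both sides, so this ratio falls for a transcript near 0 when the rest rises. The transcript itself went from 1.06e-06, 0.324 and 3.54e-05 FPKM to 2.82, 0.942 and 1.01 FPKM, so the call does not show a fall in share. Its share was 6.11e-05%, 16.4% and 0.00191% at 21% oxygen and 9.81%, 3.54% and 4.902% at 1% oxygen, so the groups overlapped and the mean share did not fall (5.45% and 6.08%). The 4634-base ENSMUST00000114846 carried most of the rise of the gene, from 1.54, 1.27 and 1.68 FPKM to 20.1, 21.5 and 16.8 FPKM. Tug1, a long non-coding RNA, had its 5112-base transcript at 78.5%, 77.2% and 77.8% and then at 85.03%, 85.5% and 84.4% (diffSplice adjusted p = 0.0044, ratio test adjusted p = 0.146). Mxi1 had its 2627-base transcript at 70.9%, 78.3% and 73.3% and then at 87.4%, 83.2% and 81.6% (diffSplice adjusted p = 0.0067, ratio test adjusted p = 0.146). Shares in Tug1 and Mxi1 did not overlap between groups. Mxi1 was picked for display after its values were seen.

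**Figure D5:**
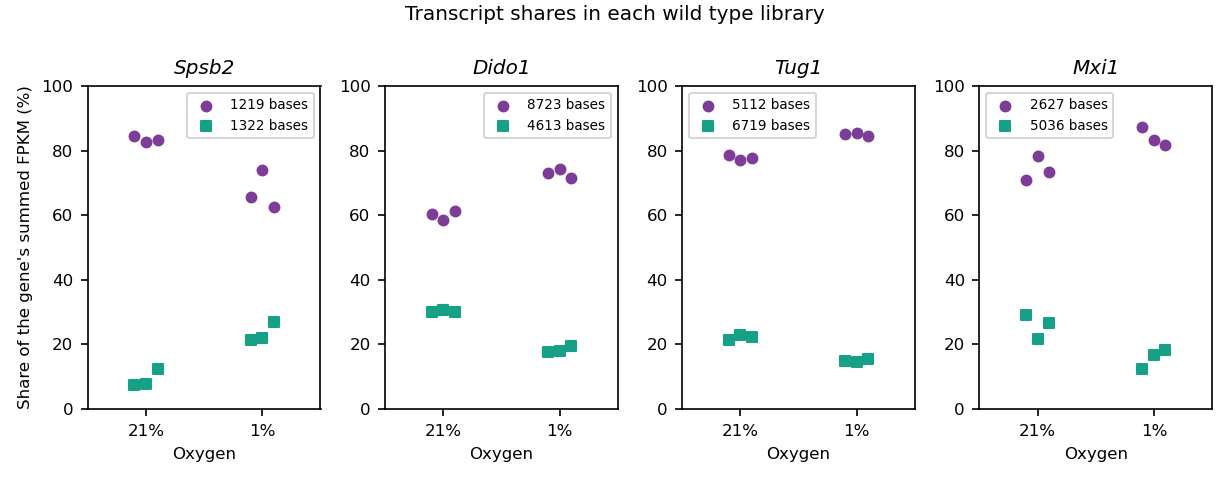
Each panel gives the share of a gene's summed FPKM, in percent, held by 2 of its transcripts in each of the 3 libraries at 21% and the 3 at 1% oxygen, with transcript lengths in the key. The Spsb2 1219-base share fell to between 62.5% and 74.1%, and the Dido1 8723-base share rose to between 71.6% and 74.2%.

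The wild type response was then set against that of the MLK2 -/- MLK3 -/- cells, the comparison that the series was designed for. A test of the difference between the responses with limma called 22 of 11378 genes (0.193%), with 1820 at an unadjusted p under 0.05, and 9 of the 22 were also called in wild type cells. Ankrd37, Ak4, Slc16a3, Pfkfb3, Bnip3 and Vegfa were not among the 22. Of the 9, Trmt5, a tRNA methyltransferase, fell in wild type cells from 6.95, 5.76 and 6.21 to 4.81, 4.8 and 4.15 FPKM (-0.39 ± 0.072, adjusted p = 0.00362). Ddx3x, an RNA helicase, rose in wild type cells from 227, 229 and 228 to 318, 301 and 290.2 FPKM (0.41 ± 0.035, adjusted p = 1.64e-05). Both separated by group in wild type cells. The count of 22 was unstable: it was 39 without wild type hypoxia replicate 1, and 1 or 2 without wild type normoxia replicate 2 or 3, wild type hypoxia replicate 2, any 1 knockout normoxia library, or knockout hypoxia replicate 1 or 3. It was 4 without wild type normoxia replicate 1.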

How the data were processed

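RNA was measured by sequencing in 12 libraries, 3 per group, of which the 6 wild type libraries are described here. The authors' deposited table gives FPKM per transcript and library. TopHat2 is named as a tool, per the submitters' processing notes. RNA was isolated with RNeasy Plus and made into libraries with NEBNext Ultra, per the labels' protocols. Which genome build, annotation and FPKM tool were used is not given in the sources used here. Fragment counts are not in the table, so the depth per library was estimated from the step size of low values, 22800000 to 26100000 fragments in wild type libraries, and no count test was run.

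FPKM was summed over the 52655 transcripts by gene, and tests covered the 11378 genes whose mean over 12 libraries reached 1 FPKM. Tests used limma 3.58.1 in R 4.3.3 (lmFit, and eBayes with a variance trend) on log2(FPKM + 1), a pseudocount of 1, with 1 coefficient per group and 8 residual degrees of freedom, and Benjamini-Hochberg adjustment over all tested genes at 0.05. Transcript shares were tested with diffSplice. The scripts were tested on simulated data. Gene positions came from GENCODE M21 (GRCm38) and promoters from RefSeq (GRCm38.p6). Python 3.11.15, pandas 2.3.3 and bedtools 2.31.1 were also used.

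The comparison, the 52 gene lists and the tests were chosen with earlier results of these data known. Genes were named by rule: among called genes whose groups did not overlap, the 25 largest rises and 15 largest falls, passing over predicted models; up to 4 called members per list with the smallest p, or 2 with the highest FPKM where none was called; the 10 genes with the smallest transcript p; and the 5 largest differences from the knockout response in each direction. Other list members are named as examples, chosen after their values were seen. Alternatives changed the pseudocount, the filter, the scaling, the libraries fitted, the variance model and the GC and length trend, added a replicate block, or left out 1 library. The labels do not say whether replicate numbers pair the libraries, and the main fit used no pairing. Results for some genes are not reported here.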

Additional observations from a re-analysis of the deposited data

Results flagged for a closer look

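These genes had a different response to hypoxia in wild type and MLK2 -/- MLK3 -/- cells by limma's test of the difference between the responses. The values given are wild type minus knockout response on the log2(FPKM + 1) scale. Trmt5 fell less in wild type cells (difference 0.69 ± 0.10 SE, adjusted p = 0.0347; knockout libraries 7.11, 7.34 and 7.73 FPKM at 21% oxygen and 2.90, 2.92 and 3.09 FPKM at 1%). The same holds for Zfp760 (0.66 ± 0.11, adjusted p = 0.0354), Clec2d (0.63 ± 0.10, adjusted p = 0.0354) and Ing4 (0.47 ± 0.078, adjusted p = 0.0367). Hpn rose in wild type cells from 4.80, 4.69 and 5.50 to 6.65, 6.30 and 6.11 FPKM, whereas in knockout cells it went from 10.5, 9.95 and 9.76 to 8.94, 8.34 and 7.93 FPKM (0.53 ± 0.091, adjusted p = 0.0482). Ddx3x rose less in wild type cells (-0.32 ± 0.050, adjusted p = 0.0347). Map3k10, one of the targeted genes, stood at 0.145, 0.169 and 0.131 FPKM in knockout normoxia and at 1.34, 1.15 and 1.02 FPKM in knockout hypoxia (-1.02 ± 0.10, adjusted p = 0.00375). Its call held in all 22 alternatives, while each of the other 6 lost its call in 11 to 17 of its alternatives.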

How the results depend on the processing

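The count of genes called was 1382 to 2351 with 1 wild type library left out (2157 to 2393 with 1 knockout library left out), and with 1 wild type library left out it was 743 to 1209 for rises and 639 to 1142 for falls. Testing each of 18090 transcripts on its own called 733 transcripts lower. Transcripts called for a changed share numbered 478 with no filter on low values, 81 at a mean of at least 5 FPKM, 88 from wild type libraries alone, 4 by the ratio to the rest of the gene and 63 to 93 with 1 wild type library left out. Genes called for a different response numbered 12 after quantile normalization, 6 without the variance trend, 153 with array weights and 1 to 39 with 1 of the 12 libraries left out. The share of calls that were rises was 50.3%, and it lay between 46.4% (quantile normalization) and 57.8% (calls of transcripts, each on its own).

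Whether the replicate numbers pair the libraries is not given in the labels. Deviations of same-numbered wild type libraries correlated at -0.084, 0.050 and 0.040. Those of differently numbered ones lay between -0.12 and 0.087, so the values cannot decide it. With a replicate block the counts were 1980 genes, 53 transcripts and 2 differences of response. No named gene that was called changed direction under any alternative run. Of 204 named genes, 31 lost their call without hypoxia replicate 1, 22 without hypoxia replicate 2, 8 without hypoxia replicate 3, and 14 from wild type libraries alone; the cause was not tested. The values are FPKM and not counts, so precision at low FPKM rests on the replicates.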

Other observations

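A further 15 of the 22 genes whose responses differed between wild type and knockout cells are given as values, on the log2(FPKM + 1) scale. Wild type minus knockout response was 0.99 for Ackr3, a scavenging chemokine receptor, 0.60 for Lrrn4cl, 0.51 for Dhx30 and 0.47 for Dusp5, an ERK phosphatase. It was 0.45 for Tc2n, 0.44 for PISD and for Irf3, 0.42 for Khnyn and 0.39 for Akirin2. Knockout responses of all these genes were negative, from -0.96 for PISD to -0.30 for Dusp5. Those of Lrrn4cl, Tc2n, PISD, Irf3 and Akirin2 were negative in wild type cells too, and smaller in size. The difference was negative for Kcnj2, a potassium channel of endothelium (-0.69), Arhgap20 (-0.54), Tmem97 (-0.39), Etv4 (-0.38), Kctd12b (-0.38) and Ptges3 (-0.23). Their knockout responses were positive, from 0.26 for Ptges3 to 0.86 for Kcnj2. Of these 15, PISD, Tc2n and Dusp5 were also called in wild type cells. Each lost its call for the difference in 9 to 16 of its alternatives.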
